A study of Mus musculus with 12 samples.

Results

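Epithelial cells, and the endocrine cells of the islet that derive from an epithelium, are held to their neighbours at tight junctions. In these junctions, claudins, occludin and junctional adhesion molecules span the membrane and set what passes between the cells, and the zonula occludens scaffolds tie them to the actin cytoskeleton. Par complex proteins bind the same scaffolds and help to place the junction and to give the cell an apical and a basal side. The genes examined here were chosen by name as 9 tight junction and polarity genes: the claudins Cldn1, Cldn3, Cldn4 and Cldn7, occludin (Ocln), the junctional adhesion molecule F11r (JAM-A), the scaffolds Tjp1 (ZO-1) and Tjp3 (ZO-3), and the polarity gene Pard6g, one of the Par6 adaptors that link Cdc42 and Par3 to atypical protein kinase C. Each was matched by its Ensembl identifier to 1 of the 37991 genes of the count table, and all 9 were among the 15961 genes with enough reads to be tested.

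The RNA came from isolated pancreatic islets of male C57BL/6 mice. Tg7 mice overexpress the microRNA miR-7a2 in β-cells, and Wt mice were their non-transgenic littermates; which promoter drives the transgene is not stated here. Islets were taken at 2w, when the study describes Tg7 mice as normoglycaemic, and at 12w, when it describes them as hyperglycaemic, and each library was made from islets pooled from several animals. There were 12 libraries, 3 for each of Wt 2w, Tg7 2w, Wt 12w and Tg7 12w (the Wt 12w libraries are numbered 1, 2 and 4), so genotype could be compared at each age and age within each genotype. These are whole islets, in which β-cells are mixed with other endocrine, vascular and stromal cells.

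Total counts lay between 11610697 and 17515758 per library. As markers of the labelled tissue, 7 islet endocrine genes together reached 91100 to 539000 CPM (counts relative to library size, here always with TMM factors applied), and insulin transcripts took 14.8 to 30% of the reads in Wt 12w against 8.08 to 8.24% in Tg7 12w, and 10.1 to 15.4% in Wt 2w against 1.84 to 4.09% in Tg7 2w. Wt 12w replicate 4 lay farthest from its own group, and results that turn on it are given with and without it. The labels do not say how the pools of one group relate to each other, and all pairs of replicates differed by more than sampling noise.

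Per kb of annotated exon, which allows levels to be compared between genes, Cldn4 had the highest level of the 9 genes in every group, with a mean of 189 ± 43.5 CPM per kb (SD, n = 3) in Wt 12w. Cldn7 followed at 90.9 ± 23.9 and Cldn3 at 58.6 ± 9.53, with ranges that overlapped, and then F11r at 40.5 ± 4.58 CPM per kb. Tjp1 (16 ± 8.18) and Ocln (13.4 ± 3.56) did not differ beyond their spread in this group, and Tjp3 (4.81 ± 2.09) and Pard6g (3.41 ± 1.42 CPM per kb) did not either. Cldn1 was lowest of the 9 in Wt 12w, at 0.515 ± 0.222 CPM per kb. In Tg7 12w the lowest was Pard6g, at 0.357 ± 0.101 CPM per kb, beside 0.395 ± 0.184 for Cldn1, which lay within their spread.

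**Figure D1:**
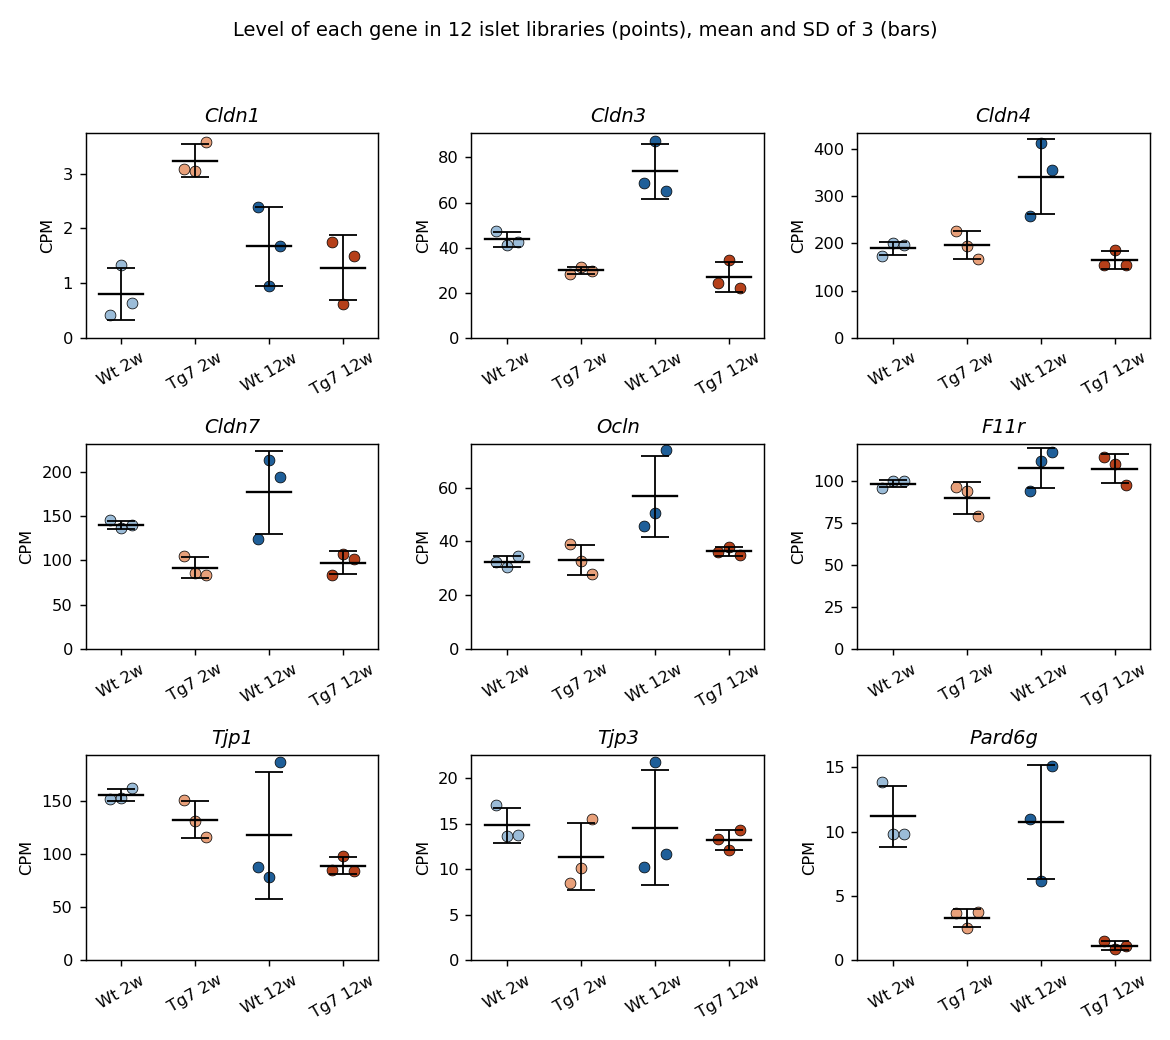
CPM (vertical axes, starting at 0) of the 9 genes in the 12 islet libraries; points are libraries, and the bars give the mean and SD of each group of 3. Cldn3, Cldn4, Cldn7, Ocln and Pard6g lay lower in all 3 Tg7 12w libraries than in any Wt 12w library, whereas F11r overlapped between genotypes at both ages.

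Of the 9 genes, 4 changed in Tg7 islets at 2w and 5 changed at 12w. At 2w, Cldn1 rose and Cldn3, Cldn7 and Pard6g fell, and at 12w Cldn3, Cldn4, Cldn7, Ocln and Pard6g all fell. These are 44.4% of the 9 genes at 2w, where 10.6% of all tested genes were called by the same rule (6.07% higher and 4.55% lower), and 55.6% at 12w, where 23.6% were called (12.5% higher and 11.2% lower). Tg7 and Wt libraries did not overlap for 5 of the 9 genes at 2w (1 higher and 4 lower), as for 35.9% of all tested genes (17.8% higher and 18.1% lower), and for 5 at 12w (all lower), as for 37.1% (20.7% higher and 16.3% lower). The median log2 fold change of the 9 genes was −0.23 at 2w and −0.64 at 12w, beside 0.03 and −0.01 over all tested genes. A gene was called when its Benjamini-Hochberg adjusted p over all 15961 genes, from edgeR's quasi-likelihood test, was under 0.05. All 9 genes were chosen with earlier results of these data known, so neither these shares nor the medians are independent evidence. Cldn3, Cldn4 and Pard6g were also singled out by the study in the same Tg7 model, and their direction is not independent evidence either. In whole islets, a smaller share of the cells that express a gene and less of its RNA per cell cannot be told apart.

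The 3 most abundant claudins of the set, Cldn4, Cldn7 and Cldn3, were all lower in Tg7 islets at 12w. Cldn4 encodes a claudin of tight epithelia that restricts the passage of ions between cells. It measured 257, 412 and 356 CPM in Wt 12w and 154, 186 and 155 CPM in Tg7 12w. Every Tg7 library thus lay below every Wt library, and the log2 fold change was −1.05 (SE 0.17, edgeR adjusted p = 0.000581), or 0.483 of the Wt level. At 2w the groups overlapped, with 174, 200 and 196 CPM in Wt and 227, 194 and 167 CPM in Tg7. The log2 fold change at that age was 0.05 (SE 0.17, edgeR adjusted p = 0.892).

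Cldn4 was also the only one of the 9 genes called for a Tg7 effect that differed between the ages, by −1.1 on the log2 scale (SE 0.24, edgeR adjusted p = 0.0422). In this comparison 1.18% of all tested genes were called (0.871% higher and 0.307% lower). Larger estimates for Cldn1 (−2.4) and Pard6g (−1.49) missed the threshold (edgeR adjusted p = 0.145 and 0.169), and so did −0.9 for Cldn3 (edgeR adjusted p = 0.0812). In Wt islets Cldn4 rose from 2w to 12w by 0.85 (SE 0.17, edgeR adjusted p = 0.0042), while the log2 change between the ages in Tg7 islets was −0.25 (SE 0.17, edgeR adjusted p = 0.364). These values share the same libraries and are not separate evidence. The difference between the ages stood close to the threshold: its estimate stayed between −1.29 and −0.94 when any single library was left out, but it missed the threshold without 9 of the 12 libraries. The exceptions were the third Tg7 library at 2w and the first and last Wt libraries at 12w, numbered 1 and 4.

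Cldn7 (ENSMUSG00000018569, mm9 chr11:69778281-69781387), a claudin found along the basolateral membrane as well as at the junction, measured 124, 213 and 194 CPM in Wt 12w and 83.1, 107 and 102 CPM in Tg7 12w. The lowest Wt library, replicate 1, was still above the highest Tg7 library, and the log2 fold change was −0.86 (SE 0.18, edgeR adjusted p = 0.00307). The gene was lower already at 2w, where Wt libraries held 145, 136 and 140 CPM and Tg7 libraries 105, 86.1 and 83.9 CPM. The groups did not overlap at 2w either, and the log2 fold change of −0.62 (SE 0.18, edgeR adjusted p = 0.0397) passed the test. Leaving out single libraries left this 2w estimate between −0.72 and −0.57, and it passed only without Tg7 2w replicate 1. No difference between the Tg7 effects at the 2 ages was detected for Cldn7 (−0.25 log2, edgeR adjusted p = 0.718).

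Cldn3, a barrier-forming claudin and the neighbour of Cldn4 on the chromosome, measured 68.9, 87.5 and 65 CPM in Wt 12w and 24.3, 34.4 and 22.3 CPM in Tg7 12w. All Tg7 libraries were below the Wt range, and the log2 fold change of −1.45 (SE 0.17, edgeR adjusted p = 4.14e-05) was the largest fall among the 4 claudins. At 2w the libraries held 47.6, 41.2 and 42.5 CPM in Wt and 28.5, 31.6 and 29.8 CPM in Tg7. That difference, −0.55 log2 (SE 0.17), met the threshold by a narrow margin (edgeR adjusted p = 0.0499) and missed it when any of the 6 libraries of that age was left out, with estimates between −0.59 and −0.48; of 10 other settings, 5 kept the call. In Wt islets Cldn3 rose with age by 0.75 (SE 0.16, edgeR adjusted p = 0.00731), whereas in Tg7 islets the log2 change between the ages was −0.15 (SE 0.17, edgeR adjusted p = 0.6). The difference of the Tg7 effects between the ages was −0.9 (SE 0.23) and was not called (edgeR adjusted p = 0.0812); it was called, at −0.99, without Wt 12w replicate 4 and, at −1.12, without Tg7 12w replicate 2. The 3′ end of Cldn3 overlaps the annotated antisense transcript Wbscr25, and without a stated strand setting reads in the shared bases cannot be told apart.

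Cldn4 and Cldn3 lie head to head on chromosome 5, with 39.3 kb between them in the mm9 assembly to which the reads were aligned. There Cldn4 (ENSMUSG00000047501) occupies chr5:135420996-135422804 on the minus strand and Cldn3 (ENSMUSG00000070473) chr5:135462084-135463342 on the plus strand. Both genes fell at 12w, so the sequences around their annotated starts are printed to show what the pair has in common. They come from RefSeq on GRCm38.p6, a later assembly than mm9, and run from 250 bases before to 50 bases after the start, at chr5:134946885-134947184 (minus strand) for Cldn4 and chr5:134985964-134986263 (plus strand) for Cldn3. Capitals mark the E-box hexamer CACCTG, read on either strand, which repressors of the Snail and Zeb families as well as some helix-loop-helix factors are known to bind.
Cldn4 promoter: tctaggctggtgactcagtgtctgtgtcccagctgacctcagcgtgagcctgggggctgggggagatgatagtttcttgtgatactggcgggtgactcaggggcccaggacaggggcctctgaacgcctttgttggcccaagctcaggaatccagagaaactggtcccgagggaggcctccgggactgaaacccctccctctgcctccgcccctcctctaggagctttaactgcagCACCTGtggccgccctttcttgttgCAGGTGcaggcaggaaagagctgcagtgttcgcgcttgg
Cldn3 promoter: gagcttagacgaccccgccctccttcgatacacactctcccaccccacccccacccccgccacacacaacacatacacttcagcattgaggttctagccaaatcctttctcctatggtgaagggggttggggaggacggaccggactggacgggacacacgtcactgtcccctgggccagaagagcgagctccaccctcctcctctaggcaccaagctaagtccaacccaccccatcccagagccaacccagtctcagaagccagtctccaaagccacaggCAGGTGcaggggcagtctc
The Cldn4 sequence holds 2 of these hexamers, beginning 14 bases before and 11 bases after the annotated start, and the Cldn3 sequence holds 1, beginning 31 bases after it. Sequences of the promoter table were examined for 8 of the 9 genes, 11 in all, and Pard6g was not among them. The hexamer was present in 8 of these 11 sequences, belonging to 6 genes (Cldn3, Cldn4, Cldn7, Ocln, F11r and Tjp3), and in 20.2% of the 32851 promoter sequences of the table. Genes with the hexamer thus include some that fell at 12w and others, F11r and Tjp3, that were not called, and binding at these letters was not measured.

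Cldn1 (ENSMUSG00000022512, mm9 chr16:26356728-26371927), known for its part in the skin barrier, was the one gene of the set that rose. It was scarce in islets, with 7, 18 and 12 reads in Wt 2w and 58, 47 and 72 reads in Tg7 2w, which correspond to 0.415, 1.33 and 0.638 CPM and to 3.09, 3.05 and 3.58 CPM. The 3 Tg7 libraries stood above all Wt libraries, with a log2 fold change of 2.05 (SE 0.52, edgeR adjusted p = 0.0234). Single libraries mattered: the call was lost when Wt 2w replicate 1 (1.74) or 3 (1.91) was left out, and likewise for Tg7 2w replicate 3 (1.96). At 12w the groups overlapped, at 2.39, 0.953 and 1.67 CPM in Wt and 1.75, 0.609 and 1.49 CPM in Tg7, and the log2 fold change was −0.36 (SE 0.52, edgeR adjusted p = 0.676). The difference between the ages was −2.4 (SE 0.73) and did not pass (edgeR adjusted p = 0.145), so a loss of the early rise was not shown.

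Ocln (ENSMUSG00000021638, mm9 chr13:101266462-101322673) encodes occludin, a membrane protein of the junction strands that is not a claudin. It measured 45.8, 50.4 and 73.8 CPM in Wt 12w, where replicate 4 was highest, and 36.2, 38 and 34.8 CPM in Tg7 12w. The groups did not overlap, and the log2 fold change was −0.64 (SE 0.17, edgeR adjusted p = 0.0158). This call was lost, at −0.61 each, without Tg7 12w replicate 1 or replicate 3; without Wt 12w replicate 4 the estimate was −0.41, and it still passed. At 2w Ocln held 32.3, 30.6 and 34.6 CPM in Wt and 39, 32.7 and 27.8 CPM in Tg7, which overlapped (log2 fold change 0.03, SE 0.17, edgeR adjusted p = 0.938). As for Cldn3 and Cldn4, the Wt level rose with age (0.8 log2, SE 0.17, edgeR adjusted p = 0.00687) and no change was detected in Tg7 islets (0.13, SE 0.17, edgeR adjusted p = 0.662).

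F11r (ENSMUSG00000038235, mm9 chr1:173367666-173394734), whose product binds its own kind across the cell border and recruits Par3, was not called in any comparison. Its levels ran from 95.8 to 99.7 CPM in Wt 2w, from 78.8 to 96.3 in Tg7 2w, from 94 to 117 in Wt 12w and from 97.5 to 114 CPM in Tg7 12w. All Tg7 12w libraries thus lay above the Tg7 2w libraries, with a log2 change of 0.26 (edgeR adjusted p = 0.188). The genotypes overlapped at both ages, with log2 fold changes of −0.13 (SE 0.12) at 2w and −0.01 (SE 0.12) at 12w (edgeR adjusted p = 0.53 and 0.98), and the sign of these estimates turned under other scalings.

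Among the scaffolds, Tjp1 (ENSMUSG00000030516, mm9 chr7:72441051-72516125) was not called in any comparison, and 1 library decided its value at 12w. ZO-1 was the first scaffold described at tight junctions and binds claudins, occludin and actin. Tjp1 measured 87.9, 78.4 and 187 CPM in Wt 12w and 84.8, 98.7 and 84.4 CPM in Tg7 12w, so that Wt replicate 4 stood alone above the other 5 libraries. With it the log2 fold change was −0.4 (SE 0.25, edgeR adjusted p = 0.273), and without it 0.11. The 2w values were 152, 153 and 163 CPM in Wt and 151, 131 and 116 CPM in Tg7; all Tg7 libraries lay below the Wt libraries, but the difference of −0.23 (SE 0.25, edgeR adjusted p = 0.594) did not pass. Levels at 12w were lower than at 2w in all 3 Tg7 libraries (−0.57, SE 0.25, edgeR adjusted p = 0.152), and in Wt islets the age difference was −0.4 (edgeR adjusted p = 0.288) with replicate 4 and −0.91 (edgeR adjusted p = 0.000298) without it.

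Tjp3 (ENSMUSG00000034917, mm9 chr10:80735952-80754012), the ZO-3 scaffold of epithelial junctions, ranged from 13.6 to 17 CPM in Wt 2w, 8.43 to 15.5 in Tg7 2w, 10.2 to 21.8 in Wt 12w and 12.1 to 14.3 CPM in Tg7 12w. Its log2 fold changes of −0.38 (SE 0.28) at 2w and −0.15 (SE 0.28) at 12w were not called (edgeR adjusted p = 0.405 and 0.757). The end of the gene overlaps Apba3 on the other strand, so its reads may be shared.

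Pard6g (ENSMUSG00000056214) showed the largest change of the 9 genes at 12w. It measured 11, 6.19 and 15.1 CPM in Wt 12w and 1.47, 0.83 and 1.09 CPM in Tg7 12w, from 15 to 26 reads per Tg7 library. The lowest Wt library was far above the highest Tg7 library, and the log2 fold change of −3.25 (SE 0.36, edgeR adjusted p = 3.09e-05) corresponds to 0.105 of the Wt level. The fall was present at 2w as well, with 13.9, 9.8 and 9.84 CPM in Wt and 3.68, 2.47 and 3.73 CPM in Tg7 (−1.76, SE 0.33, edgeR adjusted p = 0.00382). In Tg7 islets Pard6g fell further between the ages (log2 change −1.55, SE 0.36, edgeR adjusted p = 0.0119), with no overlap between the ages; without Tg7 12w replicate 2, the lowest library, the estimate was −1.37 and missed the threshold (edgeR adjusted p = 0.0609). In Wt islets the age difference was −0.05 (SE 0.31, edgeR adjusted p = 0.925). The difference between the Tg7 effects at the ages was −1.49 (SE 0.48) and did not pass (edgeR adjusted p = 0.169). The calls at 2w and at 12w held without each library in turn, with log2 fold changes from −1.87 to −1.57 and from −3.53 to −2.91.

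Since the transgene encodes miR-7a2, the mature miR-7 sequences are shown with their seed, bases 2 to 8, in capitals; RefSeq gives the same seed for both mouse forms.
mmu-miR-7a-5p: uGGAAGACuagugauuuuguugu
mmu-miR-7b-5p: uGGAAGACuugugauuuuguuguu
The 7-base match to this seed (GTCTTCC) was searched on the transcript strand in the longest annotated 3′ untranslated stretch of each gene. It was found in 1 of the 9 genes, Pard6g, once in 1818 bases, and in none of the other 8. Among all tested genes with such a stretch, 13.2% held a match, so 1 in 9, or 11.1%, is near the background. The match is a description of the letters and not a measured target site, and mature miR-7 is not measured by these libraries.

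**Figure D2:**
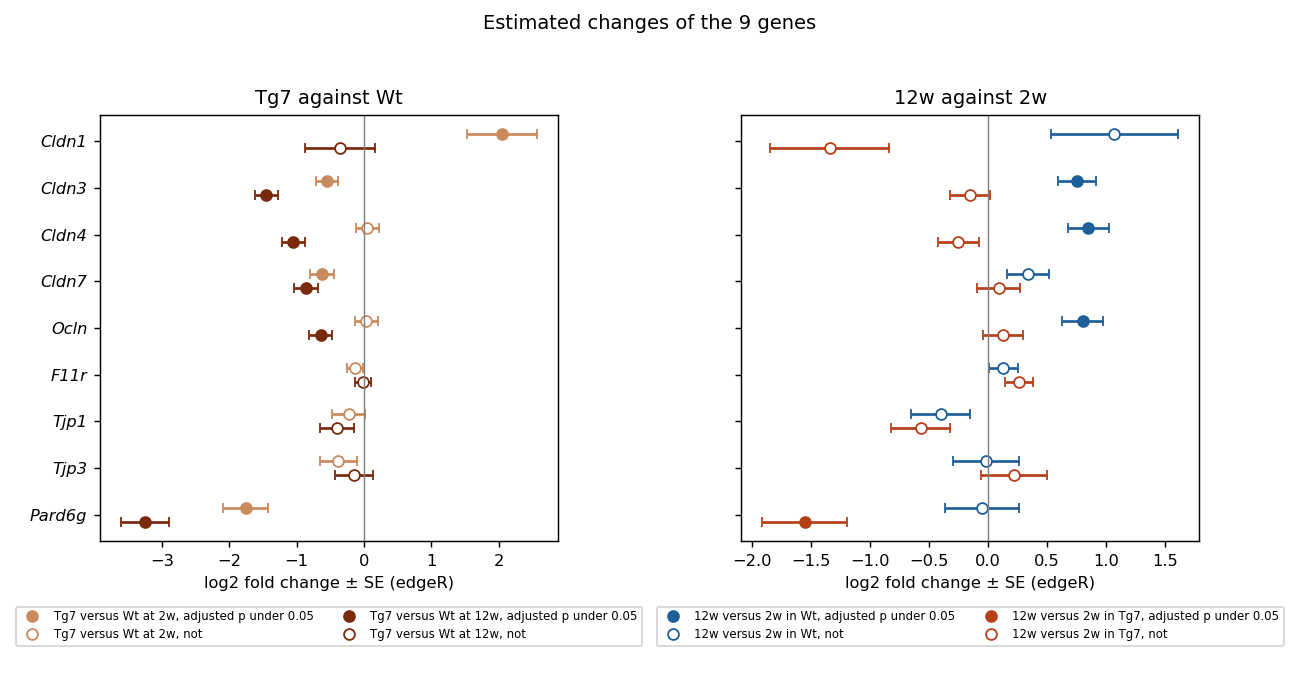
Log2 fold changes of the 9 genes with their standard errors (horizontal axis), for Tg7 against Wt at 2w and 12w (left) and for 12w against 2w in Wt and in Tg7 (right); filled points had an edgeR adjusted p under 0.05. At 12w the 5 filled points lie left of 0, from −0.64 for Ocln to −3.25 for Pard6g, and in Wt islets Cldn3, Cldn4 and Ocln lie between 0.75 and 0.85.

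The age comparisons use the same libraries as the genotype comparisons. Of the 9 genes, 3 rose between 2w and 12w in Wt islets and none fell, where 15.8% of all tested genes were called (7.9% higher and 7.91% lower); in Tg7 islets 1 of the 9 fell and none rose, where 13% were called (7.02% higher and 6.01% lower). The ages did not overlap for 3 genes in Wt islets (all higher), beside 31.4% of all tested genes (15.7% higher and 15.6% lower), and for 4 in Tg7 islets (1 higher and 3 lower), beside 40.7% (21.5% higher and 19.2% lower). Cldn3, Cldn4 and Ocln rose with age in Wt islets, and for each the mean of the Tg7 12w libraries lay nearer to the mean of the 2w libraries of either genotype than to that of the Wt 12w libraries. The median log2 age change of the 9 genes was 0.34 in Wt and −0.15 in Tg7, beside 0.04 and −0.01 over all tested genes.

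The direction of a small change depended on how libraries were scaled. Dividing by library size alone, in place of TMM factors, moved the median of all tested genes to 0.43 log2 at 12w and 0.19 at 2w, to −0.35 for age in Wt and −0.13 for age in Tg7. All 9 estimates were negative at 12w with TMM factors, whereas by library size alone Cldn1 (0.09), F11r (0.43) and Tjp3 (0.29) were positive. Taken relative to the shifted median, the 12w changes were −1.43 for Cldn3, −1.05 for Cldn4, −0.87 for Cldn7, −0.65 for Ocln and −3.26 for Pard6g. A change of scaling moves all genes by nearly the same amount. These values therefore return those with TMM factors by construction and are not separate evidence. By library size alone only Cldn3, Cldn4 and Pard6g were still called at 12w, and the rises of Cldn3, Cldn4 and Ocln with age in Wt islets were not called (0.36, 0.46 and 0.43). The difference of the Cldn4 effects between the ages was then −0.83 and not called either.

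Ratios between genes of the same library do not depend on scaling. Reads of Cldn4 per read of F11r were 1.82 to 2.01 in Wt 2w, 2.06 to 2.36 in Tg7 2w, 2.73 to 3.67 in Wt 12w and 1.35 to 1.68 in Tg7 12w. The ratio was therefore slightly higher in Tg7 than in Wt at 2w and lower at 12w, with no overlap at either age. Against Epcam, another epithelial gene, the Cldn4 ratio overlapped between genotypes at 2w (0.46 to 0.545 in Wt and 0.503 to 0.692 in Tg7) and was lower in Tg7 at 12w (0.51 to 0.659, against 0.907 to 1.22 in Wt). For Cldn7 over F11r, the ranges were 1.36 to 1.51 in Wt 2w, 0.915 to 1.09 in Tg7 2w, 1.32 to 1.9 in Wt 12w and 0.726 to 1.04 in Tg7 12w, lower in Tg7 at both ages. Ocln over F11r ran from 0.307 to 0.347 in Wt 2w, from 0.348 to 0.405 in Tg7 2w, from 0.449 to 0.63 in Wt 12w and from 0.316 to 0.357 in Tg7 12w. Such ratios show that the genes changed unequally, not which of them was unchanged.

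Summed over 24 claudin genes, the level per kb was 277 to 281 CPM per kb in Wt 2w, 234 to 266 in Tg7 2w, 336 to 477 in Wt 12w and 206 to 244 CPM per kb in Tg7 12w. Cldn4, Cldn7 and Cldn3 made up most of this sum in every library. In Wt 12w they took 45.3 ± 2.86, 21.7 ± 2.37 and 14.3 ± 2.12% of it (SD, n = 3). In Tg7 12w their shares were 41 ± 1.35, 22.4 ± 1.65 and 9.57 ± 1.53%, so the Cldn3 share, from 8.15 to 11.2%, lay below the 12.1 to 16.3% of Wt 12w.

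**Figure D3:**
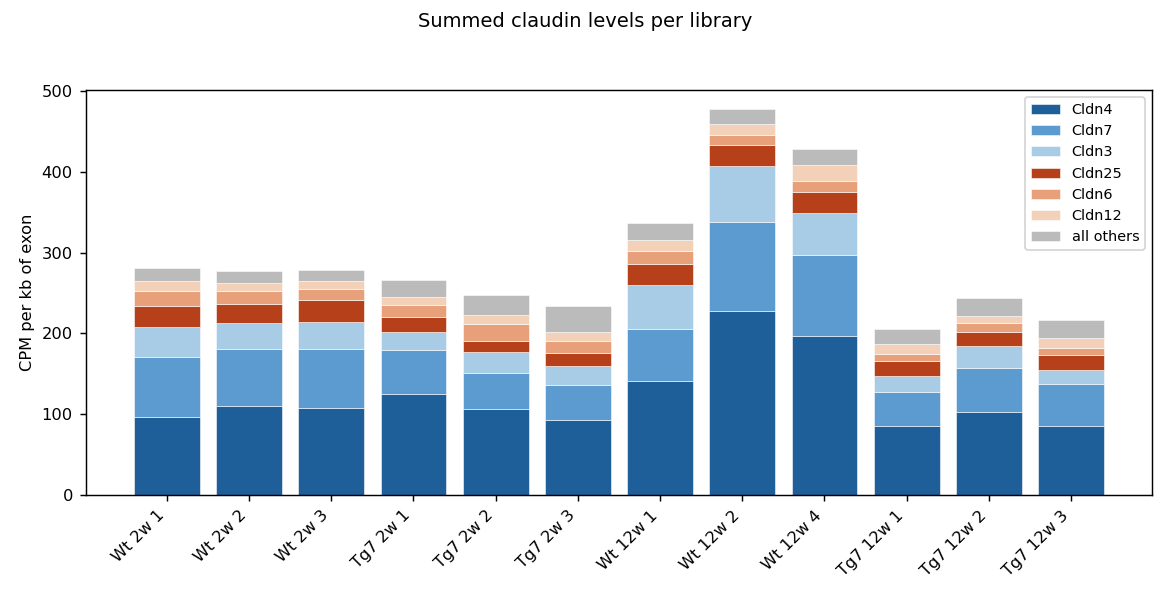
Summed level of 24 claudin genes in each library (CPM per kb of exon, vertical axis starting at 0), stacked by gene; the 6 highest genes are coloured and the others are grey. The 3 Wt 12w libraries reach 336 to 477 CPM per kb and the 3 Tg7 12w libraries 206 to 244.

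Levels of several of the 9 genes moved together over the 12 libraries, which share the 4 groups, so these values are a description. Of the 36 pairs, Pearson's r of log2 CPM was highest for Cldn3 with Cldn7 (0.861), Cldn3 with Cldn4 (0.849), Cldn4 with Ocln (0.825) and Cldn4 with Cldn7 (0.808). After subtracting group means, r was 0.347, 0.403, 0.549 and 0.869 for these pairs in the same order. Ocln and Tjp1 gave 0.0527 over all libraries and 0.903 after subtracting group means, and Wt 12w replicate 4 was the highest library of its group for both. Over all tested genes, the nearest to Cldn4 was Unc119b (0.938). Nearest to Cldn3 were Obfc2a (0.954) and Fam83g (0.95), to Cldn7 Trmt12 (0.964) and Nacc1 (0.949), and to Ocln Epb4.1l5 (0.952) and Zc3hav1 (0.944). Pard6g was followed most closely by Dusp18 (0.977) and Maob (0.968), and Tjp1 by Med13l (0.984) and Casr (0.978). For the remaining genes the nearest were Hc (0.895) and Acot4 (0.864) to Cldn1, Slc25a40 and Lhfpl4 (0.932 each) to F11r, and Aarsd1 (0.893) and Wdr74 (0.891) to Tjp3.

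The other genes of the junction were taken from a list of 74, of which 64 could be tested: claudins, further membrane proteins, scaffolds, the Par, Crumbs and Scribble complexes and the adherens junction core. At 2w 5 rose and 1 fell, which is 9.38% of the 64 and near the 10.6% of all tested genes, and at 12w 6 rose and 10 fell, or 25% beside 23.6%. The share called among these genes was thus near the background at both ages. Their split by direction depended on scaling, because by library size alone 20 rose and 0 fell at 12w; that scaling called 34.8% of all tested genes, 5198 higher and 360 lower.

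Of the 13 genes listed as scaffolds, 2 fell at 12w and none was called at 2w (edgeR). That is 15.4% at 12w, where 11.2% of all tested genes were called lower, and 0% at 2w, where 10.6% were called. Ybx3 was among the 2 (log2 fold change −0.36, SE 0.11, edgeR adjusted p = 0.0307). Cingulin (Cgn) and paracingulin (Cgnl1), which bind ZO proteins, gave −0.19 and 0.42 at 12w and were not called (edgeR adjusted p = 0.417 and 0.245).

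In the Par complex, to which Pard6g belongs, 1 of 9 genes fell at 12w and none was called at 2w. The share at 12w was 11.1%, beside 11.2% of all tested genes called lower. Pard3b, a Par3 paralogue, held 15 to 17.1 CPM in Wt 12w and 8.08 to 9.38 CPM in Tg7 12w (log2 fold change −0.88, SE 0.22, edgeR adjusted p = 0.0097). Other Par6 genes gave smaller estimates than Pard6g at 12w, with −0.33 (SE 0.23) for Pard6a and −0.4 (SE 0.17) for Pard6b (edgeR adjusted p = 0.332 and 0.118). Par3 itself (Pard3) and atypical protein kinase C iota (Prkci) gave 0.04 (SE 0.22) and −0.3 (SE 0.18). For Pard3 the Wt 12w replicate 4, at 68.5 CPM beside 30.5 and 35, stood apart as for Tjp1, and without it the estimate was 0.49 (edgeR adjusted p = 0.00736).

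Of the 7 tested Crumbs complex genes, 5 were called at 12w, in both directions. This is 71.4%, beside 23.6% of all tested genes (12.5% higher and 11.2% lower). Crb3, the epithelial Crumbs protein, fell by 0.82 on the log2 scale (SE 0.17, edgeR adjusted p = 0.00366), from 41.4 to 64.8 CPM in Wt to 25.1 to 32.1 CPM in Tg7, and 2 further members, Patj and Lin7c, fell as well (−0.39 and −0.81). Both of these calls rested on Wt 12w replicate 4, without which the estimates were −0.26 and −0.45 (edgeR adjusted p = 0.0837 and 0.0662). Crb1, a Crumbs protein best known from the retina, rose by 2.11 at 2w and 2.07 at 12w (edgeR adjusted p = 0.00232 and 0.000567). Lin7a, a small scaffold that joins the Crumbs complex and is also known from synapses, rose from 1.67 to 2.14 CPM in Wt 12w to 19.9 to 25.4 CPM in Tg7 12w (3.65 log2, SE 0.23, edgeR adjusted p = 2.1e-07). At 2w it rose by 1.75 (SE 0.21, edgeR adjusted p = 0.000151), and its effect differed between the ages by 1.9 (SE 0.3, edgeR adjusted p = 0.0078). That difference was not examined under other settings or with libraries left out.

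Among the other claudins, 3 of the 11 tested were called at each age. This is 27.3%, beside 10.6% of all tested genes at 2w and 23.6% at 12w. At 2w the pore-forming claudins Cldn2 and Cldn10 rose by 1.47 and 1.6 (edgeR adjusted p = 0.0124 and 0.0362), and at 12w they gave −0.12 and 0.08 and were not called. Both calls at 2w depended on Tg7 2w replicate 3, without which the estimates were 0.98 each and missed the threshold (edgeR adjusted p = 0.0592 and 0.194). Cldn2 also lost its call without Wt 2w replicate 1 (1.33) or 3 (1.4), and Cldn10 without any one of the Wt 2w libraries (1.45 to 1.7). Cldn25, listed today as Cldnd1, a claudin-domain protein, fell at both ages (−0.64 and −0.54, edgeR adjusted p = 0.00331 and 0.00455). Cldn5, the claudin of blood vessels, rose at 12w by 1.31 (SE 0.45, edgeR adjusted p = 0.0474), a call lost without any one library except Wt 12w replicate 2, with estimates from 1.03 to 1.38. Cldn6 fell at 12w.

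Further membrane proteins were called in 4 of 10 cases at 12w, or 40%, beside 23.6% of all tested genes (12.5% higher and 11.2% lower). Jam2, Jam3 and Esam, adhesion molecules also found on endothelium, rose by 1.01, 0.88 and 0.96 (edgeR adjusted p = 0.00281, 0.000497 and 0.00135), and Igsf5 (JAM4) fell by 1.1 on the log2 scale (SE 0.33, edgeR adjusted p = 0.0265), a call lost without any one library except Wt 12w replicate 1 (−1.18 to −1.05). In the same libraries the summed endothelial markers were 484 to 604 CPM in Wt and 976 to 1020 CPM in Tg7. Of these markers 9 of 10 were called higher, beside 12.5% of all tested genes. The part of endothelial cells in the rises of Cldn5, Jam2, Jam3 and Esam was not tested. At 2w only Jam3 of the 10 was called (0.86, edgeR adjusted p = 0.00149), or 10% beside 10.6% of all tested genes. Tricellulin (Marveld2) gave 0.24 at 2w and −0.12 at 12w and was not called. In the adherens junction core 1 of 10 genes, Nectin1, fell at 12w, or 10% beside 11.2% of all tested genes called lower. E-cadherin (Cdh1) just missed, at −0.42 (SE 0.15, edgeR adjusted p = 0.0529), although all Tg7 libraries, from 338 to 361 CPM, were below the Wt libraries, from 376 to 587 CPM. Without Wt 12w replicate 4, the highest library, the Cdh1 estimate was −0.23 (edgeR adjusted p = 0.15), and without Wt 12w replicate 1 it was −0.58 and passed (edgeR adjusted p = 0.00782). None of the 4 Scribble complex genes was called at either age; Llgl2 gave 0.35 (SE 0.15, edgeR adjusted p = 0.108) at 12w.

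**Figure D4:**
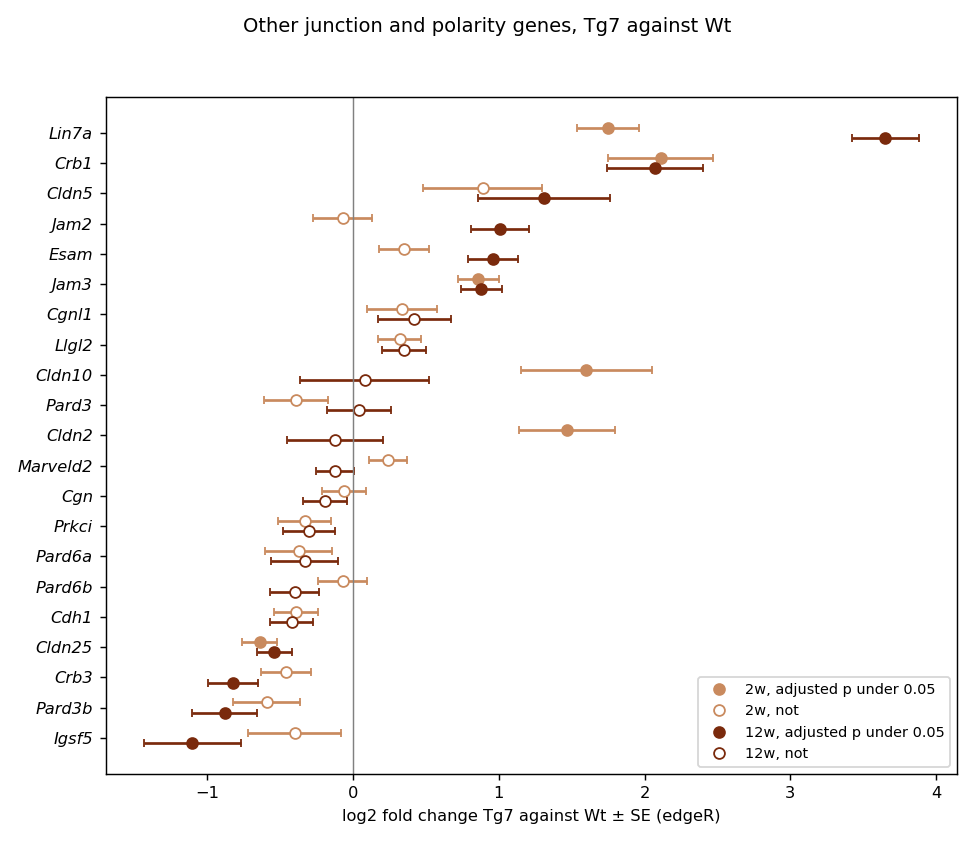
Log2 fold change of Tg7 against Wt with standard error (horizontal axis) for 21 other junction and polarity genes at 2w (light) and 12w (dark), ordered by the 12w value; filled points had an edgeR adjusted p under 0.05. Lin7a, at 3.65, and Crb1, at 2.07, lie farthest right at 12w, and Igsf5, at −1.1, farthest left.

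Markers of other cells in the islet moved with genotype. Beside the endothelial markers given above, at 12w the stellate and fibroblast markers were 35.3 to 42.2 CPM in Wt and 262 to 298 CPM in Tg7, with 7 of 7 higher. At that age 12.5% of all tested genes were called higher. Ductal markers, which come from an epithelium with tight junctions, summed to 459 to 641 CPM in Wt 12w and 753 to 1040 CPM in Tg7 12w with 2 of 7 tested markers higher. Most of that difference came from Spp1, at 102 to 144 CPM in Wt 12w and 200 to 490 CPM in Tg7 12w, while Krt19 (2.4 to 4.92 and 0.885 to 2.71 CPM) and Tspan8 (40.3 to 49.7 and 35.5 to 49.3 CPM) overlapped. At 2w the ductal sums overlapped, at 614 to 639 CPM in Wt and 547 to 651 CPM in Tg7, and the endothelial sums were 1140 to 1410 and 1270 to 1360 CPM. The stellate and fibroblast sums at 2w were 220 to 319 CPM in Wt and 408 to 550 CPM in Tg7. Acinar markers summed to 74.1 to 98.6 CPM in Wt 12w and 51.7 to 55.9 CPM in Tg7 12w. Of the 4 mesothelial markers, Msln alone could be tested and made up most of the sum, which was 91.7 to 133 CPM in Wt 2w, 28 to 37.6 in Tg7 2w, 34.7 to 56.2 in Wt 12w and 1.05 to 1.58 CPM in Tg7 12w; Lrrn4, Upk1b and Upk3b were at or near 0 in every library. The part of these other cells in the results for the 9 genes was not tested.

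**Figure D5:**
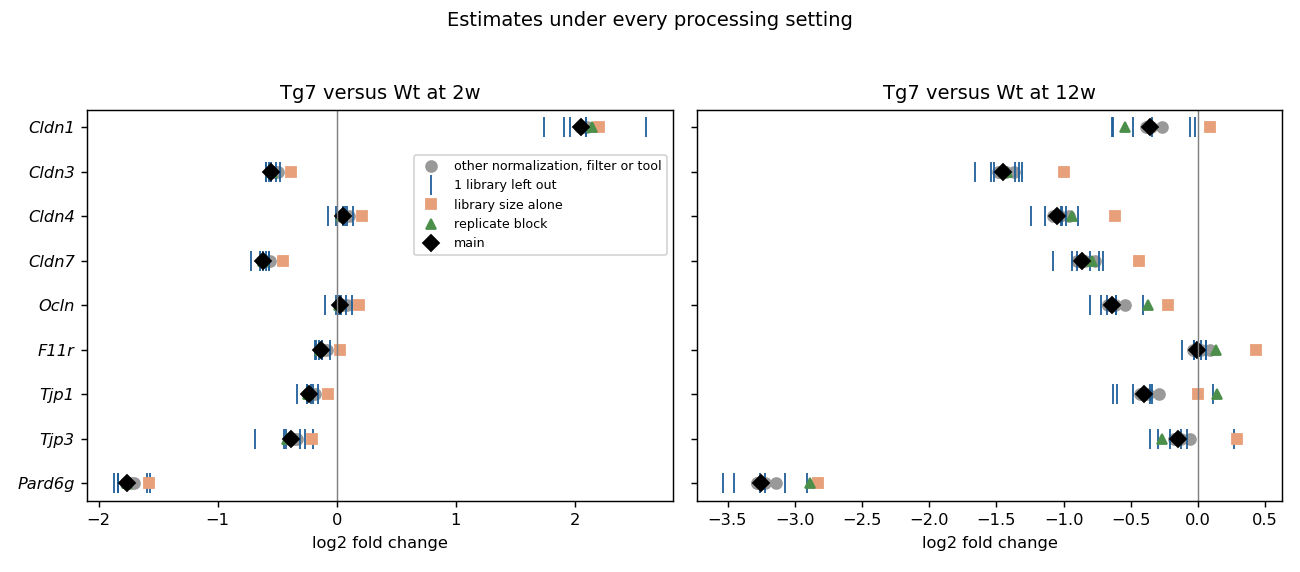
Log2 fold change of Tg7 against Wt (horizontal axis) for the 9 genes at 2w (left) and 12w (right) with TMM factors on all libraries (main) and under each alternative: other normalizations, filters and tools, library size alone, the replicate block, and 1 library left out. Pard6g lies between −3.53 and −2.83 at 12w under all of them, whereas Tjp1, Tjp3, F11r and Cldn1 fall on both sides of 0 at 12w.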

How the data were processed

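Islet RNA was sequenced as paired-end libraries (NEB Ultra II kit). Per the labels and the study's methods, the authors trimmed reads with Trimmomatic, aligned them to mm9 (NCBIM37) with TopHat2 2.0.11 and counted reads per Ensembl gene with featureCounts; the labels name bcl2fastq 2.20.0 for base calling. No source used here gives the strand setting. The deposited values are raw counts for 12 libraries, with 11610697 to 17515758 counts each, and counting error is therefore small for all of the 9 genes except Cldn1 and Pard6g.

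Symbols and positions came from GENCODE vM1 on NCBIM37. The filter filterByExpr, set to a count of 10 and a total of 15, passed 15961 of 37991 genes, which were scaled by TMM and fitted with glmQLFit and glmQLFTest in edgeR 4.0.16 (R 4.3.3) as 4 group means in 1 model; 5 contrasts were tested, and p-values were adjusted by the Benjamini-Hochberg method across all of these genes, with a threshold of 0.05. The common biological coefficient of variation was 0.212. Correlations used log2 CPM with a prior count of 2. DESeq2 1.42.0, other scalings, filters, a replicate block and leaving out each library were the alternatives, and the script was tested on simulated counts. The labels do not say whether replicate numbers mark litters or batches, and the libraries were treated as unpaired. Residuals of same-numbered libraries correlated at −0.167 to −0.0112, but without a comparison to differently numbered ones a shared litter or batch was not tested. p-values measure the spread between these pooled libraries.

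The genes and lists were chosen with earlier results of these data known. The rule for named genes took all 9 genes in every contrast, at each age up to 10 called genes of the 74 others by size of change, further junction genes by name, and the 2 nearest genes by correlation (a gene withheld from this text is not reported here); Cldn6, Nectin1, Patj and Lin7c were named after their values were seen. Where a symbol had several identifiers, the one with the longest exon length was used. Promoters and microRNAs were read from RefSeq (GRCm38.p6).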

Additional observations from a re-analysis of the deposited data

Results flagged for a closer look

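A pair of genes, Cldn4 and Lin7a, had a Tg7 effect that differed between the ages by the interaction contrast of edgeR. For Cldn4 the effect at 12w minus that at 2w was −1.1 log2 (SE 0.24, edgeR adjusted p = 0.0422): Tg7 libraries overlapped with Wt at 2w and all 3 lay below Wt at 12w. For Lin7a the difference was 1.9 log2 (SE 0.3, edgeR adjusted p = 0.0078), with all 3 Tg7 libraries above Wt at both ages. Unlike that of Cldn4, the Lin7a difference was not examined under other settings or with libraries left out. Groups of 3 libraries were not tested for single libraries that stand apart.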

How the results depend on the processing

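Pard6g at both ages and Cldn3 and Cldn4 at 12w were called in every alternative run. Of the 9 genes at 2w, 4 were called, against 2 by library size alone and 2 with a filter of 50 counts in at least 3 libraries, which left out Cldn1; leaving out single libraries gave 1 to 3. Over all tested genes those shares were 10.6, 12.4 and 13.3%, and 4.72 to 10.7% with single libraries left out. At 12w 5 were called, against 3 by library size alone (all genes 23.6 and 34.8%) and 4 to 5 with single libraries left out (15.4 to 25.7%). The difference between the ages, called for 1 gene, gave 0 by library size alone, 3 with DESeq2 on all 12 libraries, 2 without a filter and 0 to 2 with single libraries left out. All-gene shares were 1.18% in the main run and, in the same order, 2.17, 3.96, 1.75 and 0.526 to 3.65%. For age in Wt islets the 3 calls became 0 by library size alone and 3 to 4 with single libraries left out. The shares of all genes were 15.8% in the main run, 25.8% by library size alone and 8.45 to 25.4% with single libraries left out. For age in Tg7 islets the 1 call became 2 with DESeq2 on all 12 libraries, 2 with edgeR and 3 with DESeq2 on the compared libraries alone, and 0 to 1 with single libraries left out. For all genes, 13% became 17.8, 21.4 and 23.9% under those settings, and 7.16 to 10.7% with single libraries left out. Of the 64 other junction genes, 6 were called at 2w, against 11 with DESeq2 on all 12 libraries and 14 with edgeR and 17 with DESeq2 on the compared libraries alone (4 to 9 with single libraries left out), and 16 at 12w (10 to 18). The share of all tested genes called at 2w rose under the same settings, from 10.6% to 16.4, 14.4 and 20.8%.

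A replicate block, although the labels do not say that the numbers mark pairs, left 4 of the 9 genes called at 12w (Ocln, at −0.37, was lost). It left none called for the difference between the ages, and 10 of the other junction genes at 12w. Over all tested genes, 13.9% were called at 12w with the block, against 23.6% in the main run. For the difference between the ages these shares were 0.677 and 1.18%. Under the block the 12w estimates turned to 0.14 for Tjp1, 0.13 for F11r, 0.05 for Prkci and −0.41 for Cldn10, and the Tjp1 difference between the ages to 0.38.

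Estimates also changed sign by library size alone, where the median of all genes moved as given above: at 2w to 0.03 for F11r, 0.09 for Jam2, 0.1 for Cgn and 0.09 for Pard6b; at 12w to 0.09 for Cldn1, 0.43 for F11r, 0.29 for Tjp3, 0.34 for Cldn2, 0.31 for Marveld2, 0.24 for Cgn, 0.11 for Pard6a, 0.03 for Pard6b and 0.13 for Prkci; for the difference between the ages to 0.01 for Cldn7 and 0.07 for Tjp1; and for age to −0.04 for Cldn7 and −0.25 for F11r in Wt and −0.03 for Cldn7 in Tg7. F11r at 12w was 0.09 with upper-quartile factors and 0.02 with the stricter filter. With single libraries left out, estimates that crossed 0 ranged at 2w from −0.07 to 0.14 for Cldn4, −0.1 to 0.13 for Ocln, −0.34 to 0.1 for Jam2, −0.19 to 0.02 for Cgn, −0.15 to 0.02 for Pard6b; at 12w from −0.12 to 0.06 for F11r, −0.63 to 0.11 for Tjp1, −0.36 to 0.27 for Tjp3, −0.4 to 0.08 for Cldn2, −0.2 to 0.54 for Cldn10, −0.19 to 0.49 for Pard3; from −0.4 to 0.34 for the Tjp1 difference between the ages; and for age in Wt from −0.43 to 0.19 for Tjp3 and −0.4 to 0.23 for Pard6g. None of these had passed the test. The cause of each change was not tested. Depth limits Cldn1, with 7 to 72 reads a library, and Pard6g in Tg7 islets at 12w; with 3 libraries a group, a change that missed the threshold is not shown to be absent.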
